A study of Mus musculus with 4 samples.

Results

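The BCL2-family regulators of apoptosis described here are 10 genes of the mitochondrial cell death pathway, and their members were taken by name as every probe set that the array's annotation assigns to 1 gene, that gene being Bmf, Bcl2l11, Bbc3, Bad, Bax, Bak1, Bcl2, Bcl2l1, Mcl1 or Bnip3. This gave 29 of 34958 single-gene probe sets, for 9 of the 10 genes. Bax had no probe set under this rule and its transcript was not analysed here. Of the 29 probe sets 22 lay above the filter on low signals, and 8 genes were tested, because every Bcl2 probe set fell short of the gene filter.

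Transcript levels came from 4 lines of mouse embryonic stem cells, each hybridised to 1 Affymetrix whole-genome mouse array. They form a group of 2 UTX knockout lines (KO lines 1 and 2) and a group of 2 UTX conditional knockout lines (cKO lines 1 and 2), and the comparison asks which genes depend on UTX in these cells. UTX is the histone H3 lysine 27 demethylase encoded by the X-linked gene Kdm6a. In both groups the cells had grown on irradiated fibroblast feeders in medium with serum and LIF, and were freed of feeders by passage on gelatin before RNA was taken. The labels give neither the deleted part of the gene nor the way the knockout was made, each line is 1 culture on 1 array, and nothing says that lines with the same number belong together, so p-values measure only the spread between these 4 samples.

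The BCL2 family decides whether the outer mitochondrial membrane is opened, a step that releases cytochrome c and starts the caspases. Guardians such as BCL2, BCL-XL and MCL1 hold the pore-forming effectors BAX and BAK in check, and BH3-only proteins, named for the single helix they share with the family, report stress by binding the guardians or the effectors. Embryonic stem cells are known to sit close to the threshold for apoptosis, and MCL1 and BCL-XL are regarded as guardians of pluripotent cells. BNIP3, a mitochondrial protein with an atypical BH3 region, is better known as a receptor for mitophagy that is induced by hypoxia.

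The start-site regions of the members were read from RefSeq on build GRCm38.p6, from 250 bases before to 50 bases after each start, to show what sequence the family has in common. All 10 genes matched, with 18 windows of 300 bases. Of these 18 windows 16 held at least as many CpG pairs as the median of 7 CpG per window over 32851 mouse windows, with a range of 1 to 44 CpG among the members. The lowest count was that of an inner start of Bcl2l1, and the highest that of Bcl2. The GC box GGGCGG, read on both strands, was present in 11 of 18 member windows, against 35.7% of all windows. ACGTG, 1 form of the core of the hypoxia response element, also read on both strands, was in 4 of 18, against 19.6% of all windows. This form lies inside the E-box CACGTG wherever that occurs, and other forms of the core were not searched. The FOXO site GTAAACA was in 2 of 18 member windows, 1 each in Bcl2l11 and Bbc3, against 3.65% of all windows. Of the other letters searched, CCAAT was in 7 of 18, against 37.4% of all windows, and the E-box in 3, against 7.15%. The cAMP response element TGACGTCA was in 0 of 18, against 1.79%. Such matches describe letters only and no factor binding was measured.

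The outermost windows of 3 genes are printed because their genes mark the ends of the range of changes or the hypoxia arm of the family: Bmf and Bad, with the most negative and the most positive change among the 8 members tested as genes, and Bnip3. Capitals mark GGGCGG or its complement CCGCCC in Bmf and Bad, and ACGTG or its complement CACGT in Bnip3.
Bmf (chr2:118549637-118549936, minus strand): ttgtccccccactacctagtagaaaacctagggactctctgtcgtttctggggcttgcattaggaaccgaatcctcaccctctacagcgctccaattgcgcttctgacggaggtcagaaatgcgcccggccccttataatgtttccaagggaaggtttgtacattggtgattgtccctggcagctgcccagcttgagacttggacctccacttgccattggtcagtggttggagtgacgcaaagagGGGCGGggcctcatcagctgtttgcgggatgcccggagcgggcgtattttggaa
Bad (chr19:6941611-6941910, plus strand): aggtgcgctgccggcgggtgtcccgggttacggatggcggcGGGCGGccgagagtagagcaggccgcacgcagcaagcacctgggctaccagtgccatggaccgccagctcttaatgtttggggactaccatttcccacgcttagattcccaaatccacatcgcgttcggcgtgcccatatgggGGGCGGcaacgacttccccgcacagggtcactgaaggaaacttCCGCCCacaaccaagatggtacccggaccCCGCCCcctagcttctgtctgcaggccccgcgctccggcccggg
Bnip3 (chr7:138909457-138909756, minus strand): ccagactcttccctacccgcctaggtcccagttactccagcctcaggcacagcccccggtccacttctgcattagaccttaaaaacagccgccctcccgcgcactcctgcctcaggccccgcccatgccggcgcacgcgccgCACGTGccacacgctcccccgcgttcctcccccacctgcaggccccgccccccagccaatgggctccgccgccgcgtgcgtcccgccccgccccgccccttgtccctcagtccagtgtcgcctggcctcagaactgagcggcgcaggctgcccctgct
The Bmf window held 13 CpG pairs and 1 GC box. The Bad window held 27 CpG pairs and 4 GC boxes, and the Bnip3 window had 27 CpG pairs and a single E-box that gives both of its ACGTG matches.

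The arrays carried the pluripotent signature the labels name. All 10 stem cell markers were tested, and their signals ran from 5077 to 23491 in KO and from 2969 to 21939 in cKO lines. Of these 0 were called in limma, with 6 positive and 4 negative log2 fold changes and a median of 0.05. An unadjusted p under 0.05 was reached by 3 (Sox2, Zfp42 and Fbxo15), all higher in KO, against 1510 of 10916 genes in either direction. The highest log2 fold change was 0.67 for Nanog, not called. Kdm6a, the targeted gene, read 265 and 198 in KO lines 1 and 2, against 658 and 415 in cKO lines 1 and 2 (log2 fold change -1.17, SE 0.27, limma adjusted p = 0.0880), and whether its probes lie in the deleted part is not known here. Of 5 tested markers of differentiated cells 1, Nes, was called lower in KO. This list had 3 positive and 2 negative log2 fold changes, with a median of 0.01, and the highest was 0.63 for Neurod1, not called. Another 7 of these markers were under the filter, with signals between 5.74 and 141. Of 8 tested fibroblast markers all 8 had a negative log2 fold change and 2 were called lower, with a median of -1.22, and their summed signal was 1405 and 1461 in KO lines 1 and 2, against 3541 and 2429 in cKO lines 1 and 2. A further 6 fibroblast markers lay under the filter, with signals between 2.34 and 115 on all arrays, and none was at 0. In bulk RNA a change in the share of a cell type and a change in RNA per cell cannot be told apart, and the part of feeder RNA in the values below was not tested.

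No BCL2-family member passed the test between KO and cKO lines. Changes are given as log2 fold changes of KO over cKO on the log2(signal + 4.79) scale, where a signal is the linear MAS5 value of a probe set, and a call needed a limma adjusted p under 0.05 over 10916 genes. By that rule 2.21% of all genes tested were called, 241 in all, of which 70 were higher and 171 lower in KO, against 0 of 8 members. At an unadjusted p under 0.05 there was 1 member, Bmf, and 1510 genes in all. The members' log2 fold changes ran from -0.67 to 0.34 with a median of -0.03, beside a median of 0.01 over all genes tested. Their median size without sign was 0.11, against 0.17 over all genes. None of the 8 members differed 2-fold, as did 3.48% of all genes tested. Values of probe sets that do not stand for their gene come from a second fit over 20975 probe sets.

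**Figure D1:**
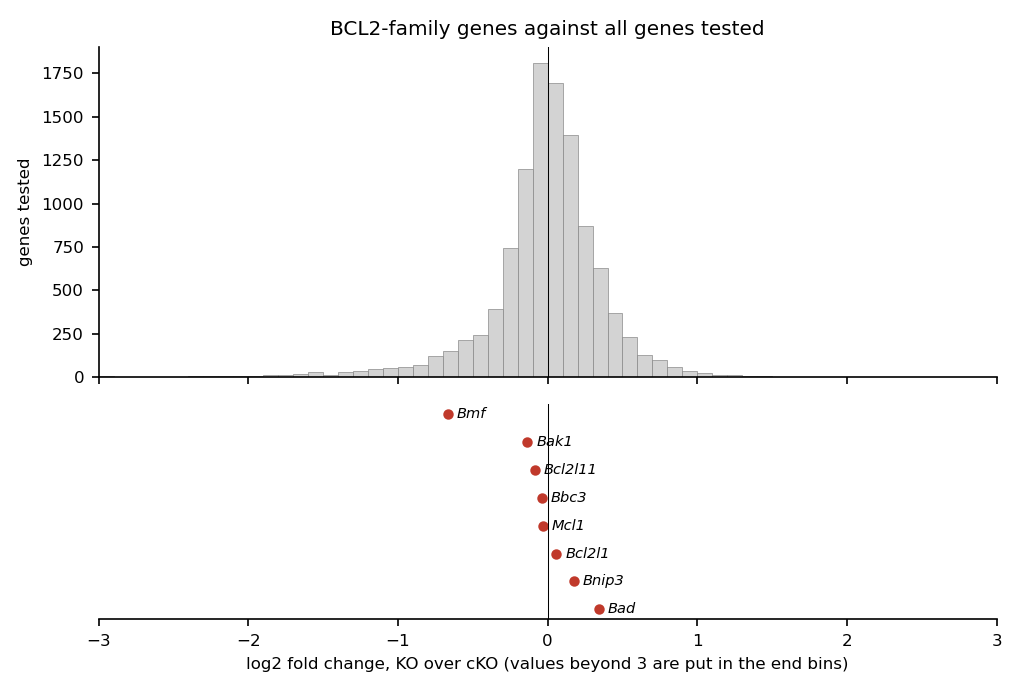
Upper panel, number of genes tested (vertical axis) by log2 fold change of KO over cKO (horizontal axis). Lower panel, the 8 tested BCL2-family genes on the same axis, which lie between -0.67 (Bmf) and 0.34 (Bad). Over all genes tested the 5th percentile was -0.70 and the 95th was 0.54, so Bmf lies near the lower of these.

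Bmf, a BH3-only protein that is held at the actin-linked myosin V motor and freed by loss of attachment, had the largest change among the 8 members tested as genes. Its brightest probe set, 1454880_s_at, read 149 and 99.4 in KO lines 1 and 2, against 190 and 202 in cKO lines 1 and 2. Which transcripts this probe set takes up was not examined here. Both KO values lay below both cKO values, and the KO lines stood further from each other than the cKO lines. The mean was 124 ± 34.8 in KO and 196 ± 8.63 in cKO (SD, n = 2 each). The fitted log2 fold change was -0.67 (SE 0.28, 95% interval -1.32 to -0.01). The unadjusted p was 0.0474 and the limma adjusted p = 0.352, so the difference missed the threshold. It rested largely on KO line 2, since the log2 fold change was -0.39 (adjusted p = 0.691) without that line and -0.95 (adjusted p = 0.168) without KO line 1.

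The other 2 Bmf probe sets were dim. Probe set 1422995_at read 6.19 and 5.30 in KO lines 1 and 2, against 33.4 and 29.0 in cKO lines 1 and 2. These groups do not overlap, but all 4 values lie under the probe set filter of 53.8, and it was not tested. Probe set 1458325_x_at, whose suffix marks probes that may take up other transcripts, read 53.3 and 33.5 in KO lines and 65.8 and 41.9 in cKO lines. Its groups overlap, and within each group line 1 read above line 2.

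Bcl2l11, which encodes BIM, the BH3-only protein that binds every guardian and is a main trigger of death on loss of growth factors, had 5 probe sets and all were tested. The brightest, 1456005_a_at, read 2530 and 3414 in KO lines 1 and 2, against 2632 and 3691 in cKO lines 1 and 2. Line 2 was the higher one in both groups, and the groups overlap almost wholly. The log2 fold change was -0.08 (SE 0.21, 95% interval -0.58 to 0.41, adjusted p = 0.921).

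A different Bcl2l11 probe set, 1426334_a_at, gave the clearest separation within this gene. It read 268 and 318 in KO lines and 379 and 407 in cKO lines, so both KO values lay lower (log2 fold change -0.42, SE 0.20, adjusted p = 0.514 over all probe sets). The remaining 3 probe sets ran from -0.11 to 0.06 with overlapping groups, so the probe sets of this gene do not share 1 direction. The suffix of 1426334_a_at marks probes shared by alternative transcripts of a gene, and which BIM isoforms each probe set reads was not examined here.

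Bbc3 encodes PUMA, the BH3-only protein through which p53 kills, and it had 1 probe set. It read 781 and 696 in KO lines 1 and 2, against 857 and 669 in cKO lines 1 and 2. Both KO values fell between the 2 cKO values. The mean was 739 ± 60.1 in KO and 763 ± 133 in cKO (SD, n = 2 each), with a log2 fold change of -0.04 (SE 0.18, 95% interval -0.47 to 0.39, adjusted p = 0.962).

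Bad, the BH3-only protein that survival kinases silence by phosphorylation, was the member with the highest values in KO relative to cKO. Its brightest probe set, 1416582_a_at, read 584 and 1056 in KO lines 1 and 2, against 503 and 763 in cKO lines 1 and 2. Line 2 was higher than line 1 in both groups and the groups overlap (log2 fold change 0.34, SE 0.31, 95% interval -0.40 to 1.08, adjusted p = 0.734). Without KO line 2 the value was -0.083 (adjusted p = 0.947).

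The second Bad probe set, 1416583_at, read 565 and 824 in KO lines 1 and 2, against 466 and 483 in cKO lines 1 and 2. Here both KO values lay above both cKO values, and the cKO lines were close together. The log2 fold change was 0.52 (SE 0.22, 95% interval 0.00 to 1.04), with an unadjusted p of 0.0487 and a limma adjusted p = 0.438 over all probe sets. Both Bad probe sets thus had a positive sign and neither passed.

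**Figure D2:**
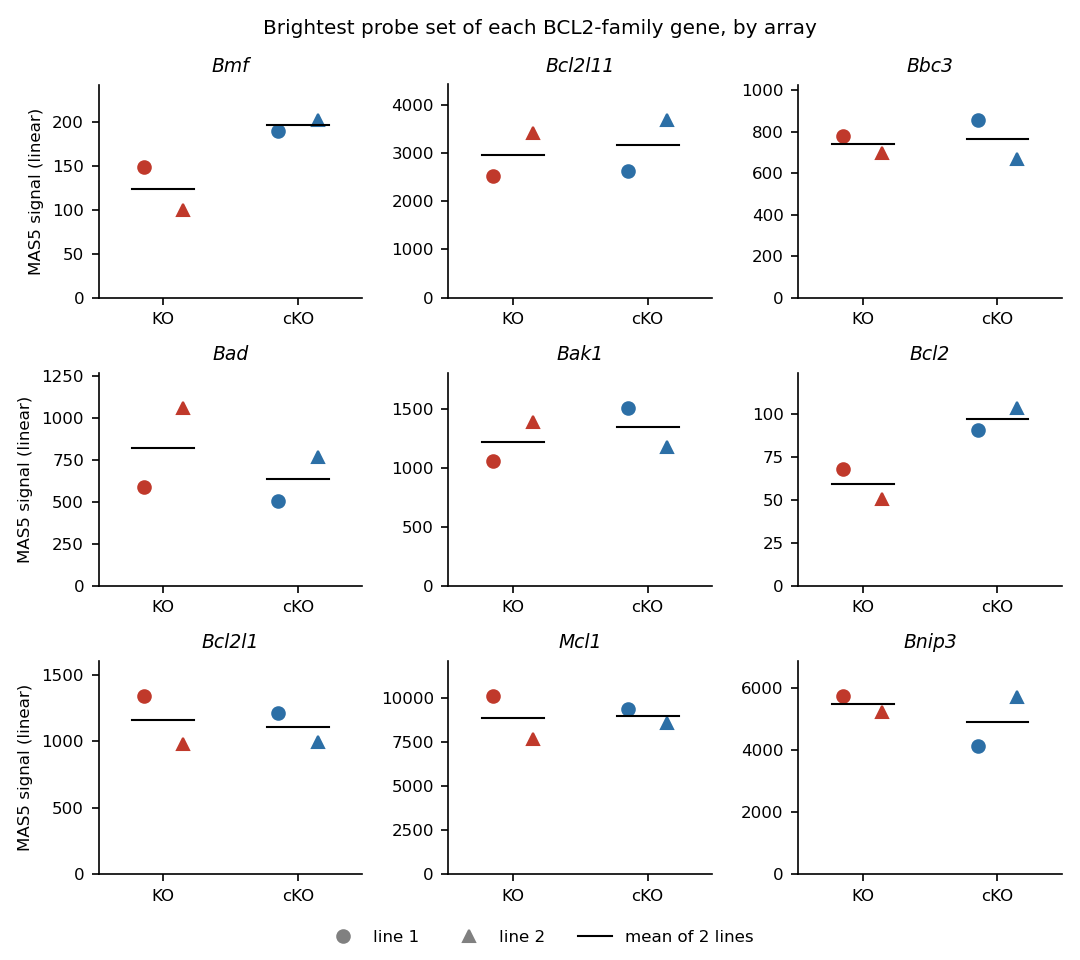
MAS5 signal on a linear axis from 0 for the brightest probe set of each of 9 BCL2-family genes in the 2 KO lines (red) and the 2 cKO lines (blue), with circles for line 1, triangles for line 2 and bars for the group means. The KO and cKO values are apart for Bmf and for the dim Bcl2, which lay under the gene filter, and overlap for the other 7 genes.

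Of the effectors only Bak1 was measured here. Bak1 encodes BAK, which sits in the outer mitochondrial membrane and forms the pore once activated. Probe set 1418991_at read 1057 and 1385 in KO lines 1 and 2, against 1503 and 1178 in cKO lines 1 and 2. The groups overlap and the order of the lines was opposite in the 2 groups. The log2 fold change was -0.14 (SE 0.20, 95% interval -0.61 to 0.33, adjusted p = 0.847). The other Bak1 probe set, 1425716_s_at, was dim and scattered, with 68.1 and 37.7 in KO lines and 92.8 and 20.2 in cKO lines.

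Mcl1, the short-lived guardian, gave the tightest estimates of the family, with 6 probe sets. The brightest, 1448503_at, read 10083 and 7641 in KO lines 1 and 2, against 9396 and 8552 in cKO lines 1 and 2. The cKO values lie inside the span of the KO values (log2 fold change -0.03, SE 0.14, 95% interval -0.37 to 0.31, adjusted p = 0.961). On the linear scale that interval runs from 0.774-fold to 1.24-fold.

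Of the 6 Mcl1 probe sets 5 had a negative log2 fold change. In 4 both KO values lay below both cKO values, as they did in 19.3% of all probe sets tested. The largest was that of 1416881_at, at 3217 and 3001 in KO lines, against 3684 and 3846 in cKO lines (log2 fold change -0.28, SE 0.12, 95% interval -0.57 to 0.01, adjusted p = 0.474). Probe set 1437527_x_at read 6176 and 6151 in KO lines, against 6616 and 7509 in cKO lines (log2 fold change -0.19, SE 0.11, adjusted p = 0.621). The one positive value was 0.02, for 1456381_x_at. These 6 probe sets were assigned to 1 gene and read on the same 4 arrays, and are not independent of each other. The suffix of 1437527_x_at, 1456243_x_at and 1456381_x_at marks probes that may take up other transcripts.

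Bcl2l1, which encodes BCL-XL, the guardian with a long-lived protein, was read by 4 probe sets. The brightest, 1420888_at, read 1339 and 980 in KO lines 1 and 2, against 1214 and 997 in cKO lines 1 and 2. Line 1 was higher in both groups and the cKO values fall within the KO span (log2 fold change 0.06, SE 0.20, 95% interval -0.42 to 0.53, adjusted p = 0.944). Probe set 1420887_a_at read 264 and 123 in KO lines and 163 and 134 in cKO lines, so that its log2 fold change of 0.28 (SE 0.37, adjusted p = 0.864) came from KO line 1. Without KO line 1 it was -0.26. The other 2 stayed at or under 94.9 on every array.

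Bcl2, the founding guardian of the family, was dim throughout, with its 5 probe sets between 13.4 and 103 on the 4 arrays. The brightest, 1457687_at, read 67.8 and 50.8 in KO lines 1 and 2, against 90.7 and 103 in cKO lines 1 and 2. Both KO values were lower than both cKO values. This gene lay just under the gene filter of 77.7, and the probe set, tested alone, had a log2 fold change of -0.68 (SE 0.34, 95% interval -1.47 to 0.11, adjusted p = 0.549). A second tested probe set, 1422938_at, gave -0.09 with overlapping groups, and the 3 dimmer ones read at most 45.9 in every line.

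Bnip3 had 1 bright probe set, 1422470_at. It read 5743 and 5234 in KO lines 1 and 2, against 4135 and 5719 in cKO lines 1 and 2. KO line 2 fell between the cKO lines, and cKO line 1 was the low one of the 4. The mean was 5489 ± 360 in KO and 4927 ± 1120 in cKO (SD, n = 2 each). The fitted log2 fold change was 0.17 (SE 0.17, 95% interval -0.22 to 0.57, adjusted p = 0.751).

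**Figure D3:**
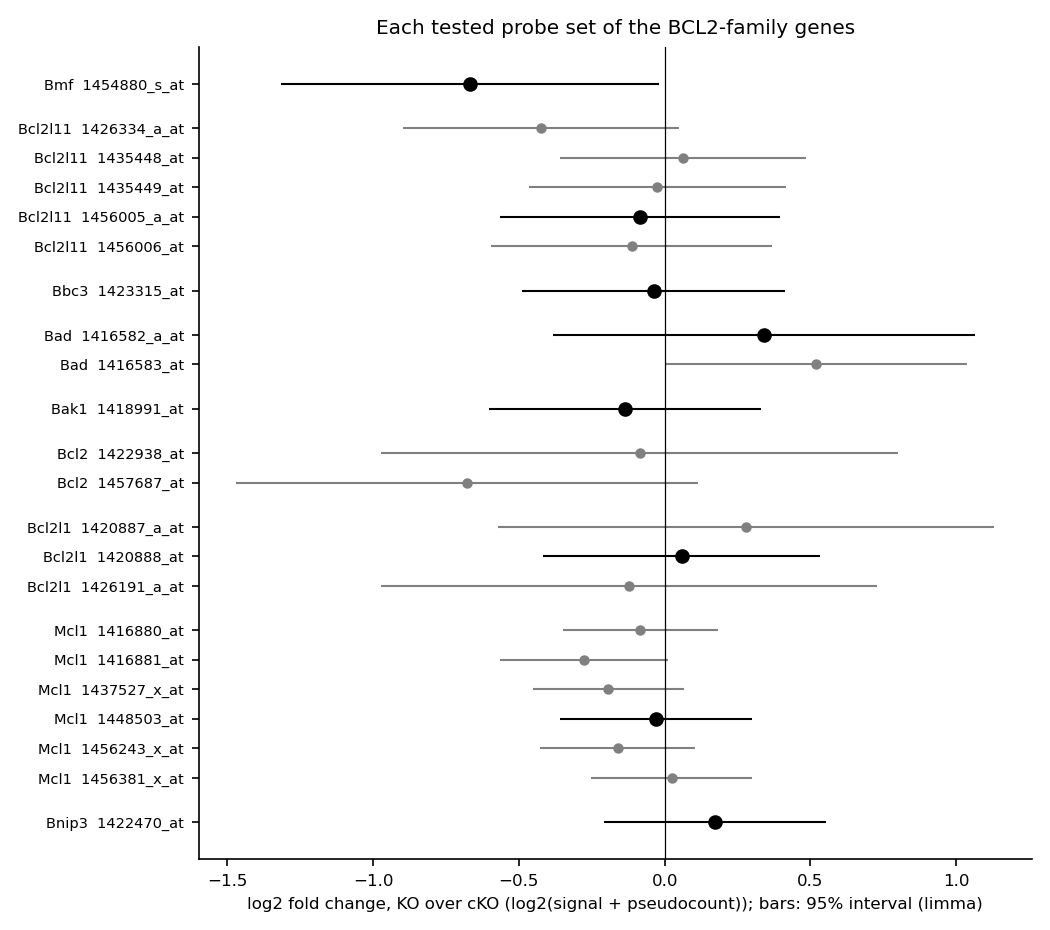
Log2 fold change of KO over cKO (horizontal axis) for the 22 tested probe sets of the BCL2-family genes, with 95% intervals from limma as bars. Large black points are the probe sets that stand for their gene in the gene test, and the values run from -0.68 (Bcl2, 1457687_at) to 0.52 (Bad, 1416583_at).

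Over all 22 tested probe sets, 15 had a negative and 7 a positive log2 fold change, and 0 passed in limma, where 1.22% of 20975 probe sets were called. At an unadjusted p under 0.05 there were 2 of 22, 1 of Bmf and 1 of Bad, and 2368 of 20975 over all probe sets, so the members' share was no higher than that of the array. The groups did not overlap for 8 of the 22, against 40.1% of all probe sets tested. In 7 of them both KO values lay below both cKO values, and 4 of these 7 were those of Mcl1; the share over all probe sets was 19.3%. In 1 of them, a Bad probe set, both KO values lay above, where the share over all probe sets was 20.8%. Among the 8 genes the groups did not overlap for 1, Bmf, against 42.6% of all genes tested.

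For most members the lines of one group stood further apart than the groups. The larger of the within-group gaps exceeded the difference between the group means for 7 of 8 members, Bmf being the exception, and for 68.4% of all genes tested. Bad had the widest gap, with KO line 1 below KO line 2 by a log2 difference of -0.85 and cKO line 1 below cKO line 2 by -0.60, beside 0.34 between the groups. For Bcl2l11 the gaps were -0.43 in KO and -0.49 in cKO, and for Bcl2l1 they were 0.45 in KO and 0.28 in cKO. The gap had the same sign in both groups for 5 of 8 members (Bcl2l11, Bbc3, Bad, Bcl2l1 and Mcl1) and for 71.0% of all genes. The median signal over all probe sets of an array went with the line number too. It was 81.6 and 64.9 in KO lines 1 and 2 and 76.6 and 64.4 in cKO lines 1 and 2. Over the genes tested the medians were closer, at 713 and 699 in KO lines 1 and 2 and 710 and 704 in cKO lines 1 and 2. The part of the line number in these values was not tested.

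**Figure D4:**
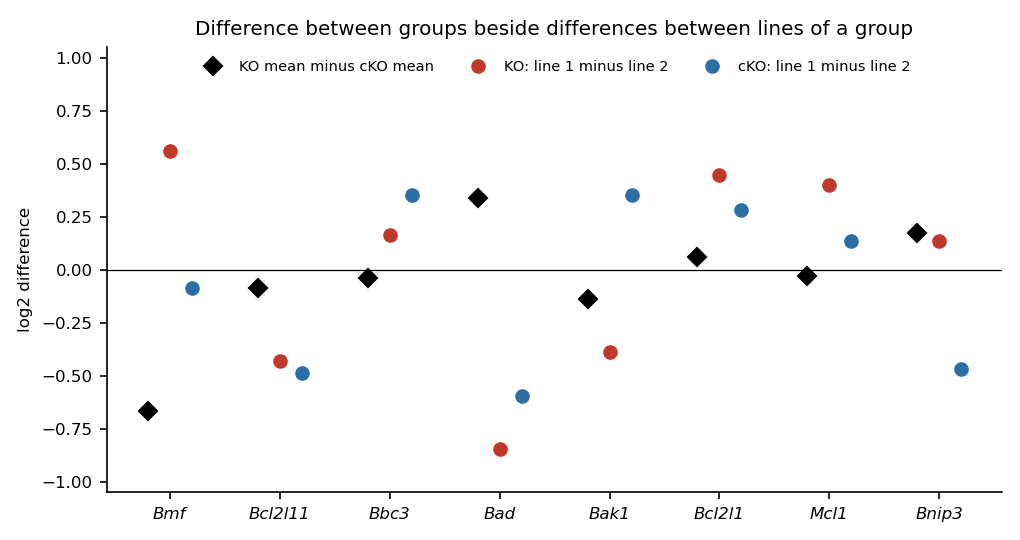
For each of the 8 tested members, the log2 difference between the group means (KO minus cKO, diamonds) beside the log2 difference of line 1 minus line 2 within KO (red) and within cKO (blue). Only for Bmf is the group difference, -0.67, larger in size than both line differences.

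A further 11 genes listed beside the members, relatives of the family together with the BCL2-associated factors Becn1 and Bclaf1, were tested in limma and 0 passed, with 6 positive and 5 negative log2 fold changes and a median of 0.02. At an unadjusted p under 0.05 there were 3 of 11 (Bok, Pmaip1 and Bik), and 1510 of 10916 over all genes tested. These 3 are pro-apoptotic and had lower values in KO, while the pro-apoptotic Bid and Hrk had positive values. Of the 11, both KO values lay below both cKO values in 4 and above them in 3 (Becn1, Bcl2l14 and Bid). The shares over all genes tested were 21.2% and 21.4%. The highest log2 fold change was 0.58 for Bcl2l14, not called. Bok, a relative of BAX and BAK, read 536 and 667 in KO lines 1 and 2, against 1063 and 1084 in cKO lines 1 and 2. Both KO values lay below both cKO values (log2 fold change -0.84, SE 0.17, adjusted p = 0.0625). Without KO line 2 the adjusted p was 0.0282 in limma, in a fit where the lone KO line is assumed to vary like the cKO lines.

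Bik, a BH3-only protein of the endoplasmic reticulum, read 162 and 117 in KO lines, against 241 and 261 in cKO lines (log2 fold change -0.85, SE 0.25, adjusted p = 0.178). Pmaip1, which encodes the MCL1-binding BH3-only protein NOXA, read 1051 and 1007 in KO lines, against 1366 and 1687 in cKO lines (log2 fold change -0.56, SE 0.17, adjusted p = 0.177). In both genes the 2 KO values lay below the 2 cKO values. The log2 fold changes of the rest were 0.58 for Bcl2l14, 0.33 for Becn1, 0.25 for Hrk, 0.19 for Bid, 0.13 for Bcl2l12, 0.02 for Bclaf1, -0.08 for Bcl2l2 and -0.21 for Bcl2l13, with adjusted p from 0.446 to 0.984. Bcl2l10 and Bcl2l15 read between 11.5 and 38.0 on all arrays and were not tested.

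Downstream of the family, the genes of cytochrome c release, the apoptosome and the caspases gave no call. Of 16 tested in limma 0 passed and 0 had an unadjusted p under 0.05, with a median log2 fold change of -0.05. Cycs, which encodes cytochrome c itself, had the smallest p, at 12578 and 13031 in KO lines against 11959 and 10727 in cKO lines (log2 fold change 0.18, adjusted p = 0.493). Casp8, the initiator caspase of death receptors, followed at -0.42 (adjusted p = 0.583). Of the 6 tested inhibitors of apoptosis 0 passed in limma and 0 had an unadjusted p under 0.05, Xiap being at -0.14 (adjusted p = 0.772) and Birc5, the gene of survivin, at 0.06 (adjusted p = 0.894).

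Pim2 and Tnfrsf12a were the called genes among the neighbours of the family. Pim2, a survival kinase that phosphorylates BAD, read 675 and 1037 in KO lines 1 and 2, against 2481 and 3363 in cKO lines 1 and 2. Every KO value lay below every cKO value and the gene fell in KO, by 1.78 on the log2 scale (SE 0.24, adjusted p = 0.0198). It was the only called gene among 21 tested partners of the members, 20 of which did not pass, and the median of that list was -0.01. The call of Pim2 was lost without the variance trend (adjusted p = 0.0736).

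Tnfrsf12a, a receptor for the TNF-family ligand TWEAK, was the 1 called gene of 7 tested in the list drawn up for the death receptor pathway. Whether it acts as a death receptor in these cells was not tested. It read 1487 and 1166 in KO lines, against 3432 and 2767 in cKO lines, and fell by 1.22 on the log2 scale (SE 0.18, adjusted p = 0.0253). This call too was lost without the variance trend (adjusted p = 0.0775). The fibroblast markers given above went the same way as both genes, and their part in these falls was not tested. The 6 other genes of the death receptor list did not pass, with Cflar, which encodes the caspase-8 inhibitor c-FLIP, at 0.51 (adjusted p = 0.439).

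Transcription factors known to act on the members gave 0 calls of 15 tested in limma and 2 at an unadjusted p under 0.05, with a median log2 fold change of -0.07. Foxo3, an activator of Bcl2l11 and Bbc3, read 1785 and 1303 in KO lines, against 2174 and 2401 in cKO lines (log2 fold change -0.58, SE 0.18, adjusted p = 0.213), and E2f1 had 0.50 (adjusted p = 0.357). Trp53 was not analysed here. Of 18 other p53 targets 0 passed in limma, and the median was -0.10. Negative values were seen in 12, against 5303 of 10916 over all genes tested. An unadjusted p under 0.05 was reached by 5, all lower in KO, against 1510 of 10916 in either direction. Both KO values lay below both cKO values in 9 and above them in 3, against 21.2% and 21.4% of all genes tested. The smallest p values were those of Plk2 (log2 fold change -1.39, adjusted p = 0.0835) and Perp (-0.73, adjusted p = 0.0952), beside the -0.04 of Bbc3.

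Bnip3 was set beside 18 tested genes of mitophagy and hypoxia, of which 0 passed in limma, 2 had an unadjusted p under 0.05 and 11 had positive values, with a median log2 fold change of 0.08. Pdk1, a hypoxia target that limits pyruvate oxidation, read 5325 and 4903 in KO lines, against 3955 and 2950 in cKO lines (log2 fold change 0.58, SE 0.16, adjusted p = 0.151). Pink1, the kinase that marks damaged mitochondria, was at 0.51 (SE 0.19, adjusted p = 0.279).

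**Figure D5:**
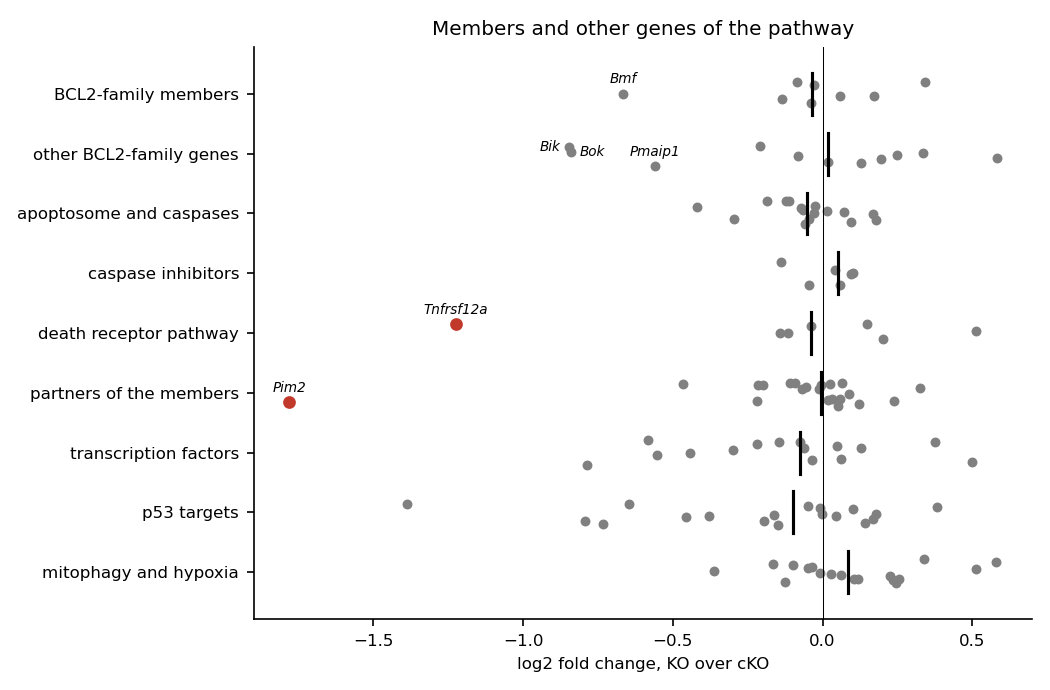
Log2 fold change of KO over cKO (horizontal axis) for the 8 tested BCL2-family members and 8 other lists of the pathway (rows), 1 point per gene with vertical jitter, red where the adjusted p was under 0.05 and a black bar at each list's median. The medians lie between -0.10 and 0.08, and the 2 red points are Pim2 at -1.78 and Tnfrsf12a at -1.22.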

How the data were processed

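Signals were intensity values on a linear scale, deposited by the authors as 1 MAS5 signal per probe set and array, as the submitters' processing notes name the tool; its version is not given in the sources used here. Each array had a 2%-trimmed mean of 500.0. Gene names came from the platform annotation, updated through Entrez identifiers in RefSeq (GRCm38.p6). The probe set with the highest mean log2 value stood for a gene, and the lower 40% of 18194 genes were left out, leaving 10916 (34958 single-gene probe sets, 20975 of them tested in a fit of their own). Values were used as log2(signal + 4.79), where 4.79 is the 10th percentile, which understates changes of dim genes. KO was compared with cKO in limma 3.58.1 under R 4.3.3 (trended eBayes, Benjamini-Hochberg over all genes tested across the array), tested on simulated data. The simulated arrays had independent noise, so that test does not cover the correlation of 0.52 between same-numbered lines given below. Arrays have no depth, and their number, 2 a group, limits precision. Named were Kdm6a, every member, every tested gene listed beside the members, and called genes or the 2 of smallest p in each further list; a few others were named after their values were seen. Members and lists were chosen with earlier results of these data known.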

Additional observations from a re-analysis of the deposited data

How the results depend on the processing

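The alternatives were other pseudocounts, filters, normalizations and thresholds, no variance trend, averaged probe sets per gene, the line number as a replicate block, and each array left out. The count of called members stayed at 0 in all 14 alternatives and that of called member probe sets at 0 in all 13. The count over all genes, 241, was 147 without a filter, 157 with the lower 60% left out, 28 without the variance trend, 129 with probe sets averaged per gene, 427 at an adjusted p under 0.10, and 228 to 434 with 1 array left out, the highest without KO line 1. With the line number as a replicate block it was 1048, and no member passed (lowest adjusted p = 0.132). The labels do not pair the lines. Deviations of same-numbered lines from their group means correlated at 0.52 across genes. The block also brought Bok (adjusted p = 0.0117), Pmaip1 (adjusted p = 0.0392) and Kdm6a (adjusted p = 0.00809) past the threshold. Kdm6a also passed with arrays centred on the median (adjusted p = 0.0284) and with KO line 1 (adjusted p = 0.00916) or cKO line 2 (adjusted p = 0.0157) left out, fits in which a group of 1 line borrows its spread from the remaining group.

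Bmf was the only member gene whose log2 fold change kept its sign in every alternative in which it was tested. These were 11, against 13 for each other tested member. Bmf was not tested under the stricter filter on low signals or with probe sets averaged per gene. Both its KO values lay below both its cKO values, so leaving out 1 array could not turn its sign. The groups did not overlap for 42.6% of all genes tested. Dropping the filter or the variance trend, or adding the block, left the log2 fold change of Bmf at -0.67. Its values ran from -0.95 to -0.39 with 1 array left out. With 1 array left out the others ran from -0.33 to 0.16 for Bcl2l11, -0.21 to 0.14 for Bbc3, -0.083 to 0.76 for Bad, -0.33 to 0.058 for Bak1, -0.17 to 0.28 for Bcl2l1, -0.23 to 0.17 for Mcl1 and -0.061 to 0.41 for Bnip3, none passing. Bak1 also turned to 0.017 with its probe sets averaged. Among further probe sets the ranges were -0.26 to 0.82 for 1420887_a_at and -0.43 to 0.19 for 1426191_a_at of Bcl2l1, -0.28 to 0.11 for 1422938_at of Bcl2, -0.15 to 0.27 for 1435448_at and -0.086 to 0.036 for 1435449_at of Bcl2l11, and -0.0037 to 0.052 for 1456381_x_at of Mcl1. Each of these fits holds 3 arrays, with the spread borrowed in the same way. With 2 lines a group the 95% interval for the gene of narrowest interval, Mcl1, still spanned -0.37 to 0.31. Every other tested member had a wider one, the widest being that of Bad, from -0.40 to 1.08. The dim Bcl2 probe set 1457687_at, tested alone, spanned -1.47 to 0.11.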
